A study of Rattus norvegicus and Mus musculus with 25 samples.

Results

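Fatty acid oxidation is described here through 38 genes in neonatal heart muscle cells of rat and mouse in which the lipoprotein receptor gene Vldlr or the gene Thbs1 had been perturbed, or the ligand Reelin had been added as protein. The members were chosen by name, as enzymes of mitochondrial and peroxisomal fatty acid oxidation and their best known transcriptional regulators. All 38 symbols were found in each deposited table, among 28905 uniquely named rows in each of the 2 rat tables and 54083 in the mouse table. In rat 37 of them passed the filter on low values described below, and in mouse all 38 did. The exception in rat was Ucp3.

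The rat cells were ventricular cardiomyocytes of 1-day-old SD rats, grown in culture after a plating step that removed the cells that attach fastest. Their 16 libraries form 8 groups of 2. The si-Vldlr and si-Control_v groups received a small interfering RNA (siRNA) against Vldlr, the very low density lipoprotein receptor, or a control siRNA, each at 50 nM for 60 h. The Reelin and PBS groups received the secreted glycoprotein Reelin, a ligand of this receptor, or its buffer for 48 h. The Vldlr OE and Control groups were transduced for 72 h with adeno-associated virus; the treatment description names a Vldlr vector driven by the cardiac troponin T promoter and a GFP vector driven by the CMV promoter, so the vectors differed in promoter as well as in cargo. The si-Thbs1 and si-Control_t groups received an siRNA against Thbs1, which encodes the matrix protein thrombospondin 1, or a control siRNA, again at 50 nM for 60 h, and are held in a table of their own. The mouse libraries came from cardiomyocytes of C57BL/6 hearts on day 1 and form 3 groups of 3. The homozygous Cre libraries (Myh6-Cre;Vldlr f/f) carry 2 floxed Vldlr alleles and a Cre recombinase under the cardiomyocyte promoter Myh6. The heterozygous Cre libraries (Myh6-Cre;Vldlr f/+) carry 1 floxed allele and the same Cre, and the Vldlr f/f libraries carry 2 floxed alleles and no Cre. The presence of Cre therefore separates both Cre groups from Vldlr f/f. Nothing in the labels says which libraries came from separate cultures, litters or hearts, so a p-value below reflects differences among the libraries alone, and these may be technical.

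Heart muscle obtains most of its energy from fatty acids after birth, and in the first days of life it moves from glucose and lactate toward this fuel. Fatty acids are activated to acyl-CoA, carried into the mitochondrion by the carnitine shuttle, and shortened by repeated rounds of dehydrogenation, hydration, a further oxidation and thiolysis, with the electrons passed on through the electron transfer flavoprotein. The nuclear receptors PPAR alpha, PPAR delta, ERR alpha and ERR gamma, together with their coactivators PGC-1 alpha and PGC-1 beta, drive transcription of these enzymes in the heart. The members were grouped by role: 4 of activation and thioester cleavage (Acsl1, Acot1, Acot2, Acot13), 6 of the carnitine shuttle and its control (Cpt1a, Cpt1b, Cpt2, Slc25a20, Crat, Mlycd), 5 acyl-CoA dehydrogenases (Acadm, Acadl, Acadvl, Acads, Acadsb) and 7 of hydration, the second oxidation and thiolysis (Hadh, Hadha, Hadhb, Echs1, Acaa2, Acat1, Hsd17b10). A further 5 act on unsaturated chains or in the peroxisome (Eci1, Eci2, Decr1, Ehhadh, Acaa1a), 3 in electron transfer (Etfa, Etfb, Etfdh), 2 in fuel switching and uncoupling (Pdk4, Ucp3), and 6 are regulators (Ppara, Ppard, Ppargc1a, Ppargc1b, Esrra, Esrrg).

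Levels are given in CPM, counts scaled to a common library total, as the authors deposited them, so a level is not corrected for gene length and genes are not ranked against each other. Fold changes are fitted log2 differences on the log2(CPM + 1) scale, tested with limma over every gene of a table and called at a Benjamini-Hochberg adjusted p under 0.05. Depth can be read only in steps, the smallest spacing between values, which summed to 66088372 to 78370879 in mouse libraries and 77530465 to 97773386 in rat libraries and need not be reads. The mean level of each targeted gene lay on the labelled side of its controls, and none was called. Vldlr itself stood at 183 and 171 CPM with its siRNA, against 252 and 257 CPM in si-Control_v libraries, and 656 and 889 CPM in Vldlr OE against 577 and 379 CPM in Control libraries. In mouse it had 71.3, 78.9 and 85.1 CPM in the homozygous Cre libraries, 98.4, 112 and 100 CPM in the heterozygous ones, and 195, 109 and 164 CPM in Vldlr f/f. Thbs1 had 745 and 546 CPM in si-Thbs1 against 943 and 892 CPM in si-Control_t libraries. Cardiomyocyte markers were present in every library, with Tnnt2, cardiac troponin T, between 2289 and 4605 CPM in rat and between 7675 and 12163 CPM in mouse. Fibroblast markers were abundant in rat cultures, where 9 genes summed to between 28105 and 46485 CPM, against 2987 to 5637 CPM in mouse. Macrophage markers were also higher in rat, at 508 to 1129 CPM against 107 to 154 CPM in mouse. Endothelial markers went the other way, at 48.1 to 83.9 CPM in rat (7 genes) against 998 to 1419 CPM in mouse (8 genes). So did erythroid markers, at 0.392 to 2.66 CPM in rat (4 genes) against 2964 to 6701 CPM in mouse (7 genes). In such bulk samples fewer cells of a type and less RNA per cell cannot be told apart.

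No member was called in any of the 7 comparisons, which is read against few calls over all genes. Of all tested genes, si-Vldlr called 0.0289%, Reelin 0.0144%, Vldlr OE 0.00722%, si-Thbs1 0.0447% and each of the 3 mouse comparisons 0%. The descriptions below therefore rest on the values in each library, on the direction of each member and on unadjusted p-values, each beside the same count over all genes. Across the libraries of a table the members were far more even in rat than in mouse. Among members of at least 1 CPM in every library, the highest library was a median of 1.46 times the lowest in the 12-library rat table (35 genes), 1.32 times in the 4-library rat table (37 genes) and 2.78 times in mouse (38 genes). This ratio was not computed over all genes, so the difference is not shown to be particular to the members.

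**Figure D1:**
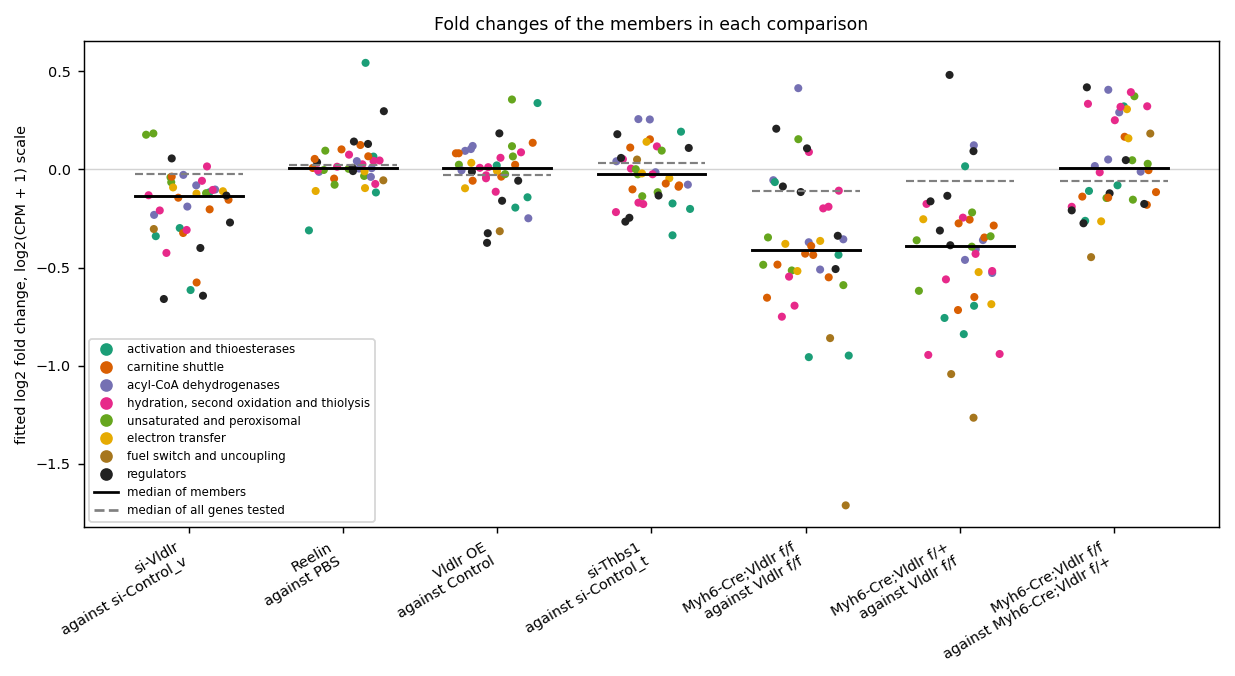
Fitted log2 fold change (y axis, log2(CPM + 1) scale) of each tested member in the 7 comparisons (x axis), coloured by role, with the members' median as a black line and the median of all genes tested as a dashed grey line. The members' median lies below that of all genes in si-Vldlr (-0.13 against -0.02) and in both comparisons with Vldlr f/f (-0.41 against -0.11 and -0.39 against -0.06), and close to it in the others.

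The start regions of the rat genes were read from RefSeq (assembly GRCr8), which held a window for 33 of the 38 members. The names not matched were Acadl, Ppard, Decr1, Cpt1b and Acaa2. The 250 bases before each start site were searched on both strands for the nuclear receptor half-site AGGTCA, for the ERR element TCAAGGTCA, and for DR1, the half-site repeated in the same orientation with any single base between the copies. The half-site lies within the ERR element and within DR1, so these overlap. It was found in 5 of 33 members (Acadvl, Echs1, Eci1, Esrrg and Ucp3) and in 14.1% of 33469 windows of the assembly. The ERR element was found in 0 members and 0.388% of windows, and DR1 in 0 members and 0.0508% of windows. A match is only a match of letters. The 3 windows shown are those of Hadha, whose window lies between the divergent start sites of both trifunctional protein genes, and of Acadvl and Ucp3, each of which holds the half-site at 2 places, marked in capitals. Their positions are chr6:31907551-31907800 on the plus strand for Hadha, chr10:55236706-55236955 on the minus strand for Acadvl and chr1:164227660-164227909 on the plus strand for Ucp3.
Hadha: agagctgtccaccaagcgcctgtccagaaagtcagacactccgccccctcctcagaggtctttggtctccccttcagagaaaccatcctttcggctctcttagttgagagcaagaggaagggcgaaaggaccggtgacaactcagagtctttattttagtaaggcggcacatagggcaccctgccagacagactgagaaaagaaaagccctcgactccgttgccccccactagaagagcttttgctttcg
Acadvl: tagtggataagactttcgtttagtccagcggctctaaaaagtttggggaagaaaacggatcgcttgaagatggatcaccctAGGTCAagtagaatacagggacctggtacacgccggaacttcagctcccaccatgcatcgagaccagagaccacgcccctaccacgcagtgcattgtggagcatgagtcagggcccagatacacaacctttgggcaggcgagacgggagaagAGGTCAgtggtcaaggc
Ucp3: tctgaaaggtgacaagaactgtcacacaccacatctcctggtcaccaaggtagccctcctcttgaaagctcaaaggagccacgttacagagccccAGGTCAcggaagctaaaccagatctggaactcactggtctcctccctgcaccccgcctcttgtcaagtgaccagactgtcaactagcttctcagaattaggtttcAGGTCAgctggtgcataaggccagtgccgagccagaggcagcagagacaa

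Hadha and Hadhb encode the alpha and beta subunits of the mitochondrial trifunctional protein, which carries out the last steps of long-chain oxidation. In rat their start sites lie 300 bases apart on chromosome 6 (31907801 for Hadha and 31907500 for Hadhb), and no searched motif was found in the window printed above. In mouse the genes lie 85 bases apart on chromosome 5 (GRCm38), Hadha at 30118304 to 30155162 on the minus strand and Hadhb at 30155248 to 30184593 on the plus strand. The ratio of Hadha to Hadhb CPM nevertheless varied between mouse libraries, from 1.25 in Vldlr f/f replicate 2 to 2.73 in Vldlr f/f replicate 1, while in rat it stayed between 1.25 and 1.65.

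With the siRNA against Vldlr, most fatty acid oxidation genes had lower values than with the control siRNA, by small amounts. Of 37 tested members, 33 had a fitted change below 0 (89.2%, against 53.9% of all genes), with a median log2 change of -0.13 against -0.02 over all genes. In 21 members (56.8%, against 27.4% of all genes) both si-Vldlr libraries lay below both si-Control_v libraries, and in 2 (5.41%, against 21.1% of all genes) they lay above. Unadjusted p-values under 0.05 were found for 5 members, all lower: Cpt1b, Esrra, Acaa2, Acot2 and Cpt2. That is 13.5% of members, where 11.8% of all genes had such a p and 6.39% had it with a lower value, and the smallest adjusted p of a member was 0.334 (limma).

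In the carnitine shuttle all 6 members were below 0, with a median of -0.18. Cpt1b, the muscle form of the transferase that commits fatty acids to mitochondrial import, had 55.1 and 69.3 CPM in si-Vldlr cells, against 76.5 and 112 CPM in si-Control_v libraries. Both treated libraries were lower, but the control libraries differed from each other by more than the nearest libraries of the groups did. The log2 fold change was -0.58 (95% interval -1.01 to -0.14; limma adjusted p = 0.334). Cpt1a, the form that predominates in liver and the fetal heart, had 42.8 and 44.4 CPM against 46.0 and 65.4 CPM in si-Control_v. Of the 4 genes of activation and thioester cleavage, all were below 0, with a median of -0.32. Acsl1, the main long-chain acyl-CoA synthetase of the heart, had 93.2 and 113 CPM against 118 and 211 CPM in si-Control_v, so that here too 1 control library stood well above the other 3.

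In the spiral itself the 5 acyl-CoA dehydrogenases had a median log2 change of -0.10, and the 7 genes of hydration, the second oxidation and thiolysis one of -0.13. The roles were not tested against each other. Acadm, the medium-chain dehydrogenase, had 128 and 139 CPM in si-Vldlr cells, against 136 and 146 CPM in si-Control_v libraries, which overlap. Hadha had 320 and 319 CPM against 330 and 358 CPM in si-Control_v, a log2 change of -0.10. Acaa2, the mitochondrial thiolase of medium and long chains, had 39.8 and 44.8 CPM against 47.7 and 68.2 CPM in si-Control_v (log2 -0.43, 95% interval -0.80 to -0.06). Acot2, a mitochondrial thioesterase that releases free fatty acids from acyl-CoA, had 20.6 and 15.2 CPM against 22.2 and 21.8 CPM in si-Control_v. Pdk4, the kinase that shuts off pyruvate dehydrogenase when fat is burned, was low in all rat libraries, at 4.69 and 4.95 CPM against 4.93 and 7.70 CPM in si-Control_v. Of the 5 genes that act on unsaturated chains or in the peroxisome, Acaa1a and Ehhadh had fitted changes above 0, of 0.18 each. The other 3 were below 0, and the median of the 5 was -0.04. Ehhadh lay between 0.482 and 1.43 CPM over the 12 libraries, near the filter of 1 CPM.

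Among the 6 regulators the median was -0.34 and 5 were below 0. Ppargc1a, which encodes PGC-1 alpha, had 15.6 and 19.2 CPM in si-Vldlr cells, against 21.8 and 35.6 CPM in si-Control_v libraries, the most negative fitted change of the 37 members at -0.66 (95% interval -1.38 to 0.06). Ppara had 7.28 and 8.63 CPM against 11.2 and 15.0 CPM in si-Control_v (log2 -0.64, 95% interval -1.40 to 0.11). For both genes the groups did not overlap, yet the interval of the change included 0. Esrra, encoding ERR alpha, had 71.6 and 86.0 CPM against 90.0 and 100 CPM in si-Control_v, a log2 change of -0.27 with the narrower interval of -0.50 to -0.05. Esrrg was the regulator above 0, at 62.6 and 66.1 CPM against 61.7 and 61.9 CPM in si-Control_v.

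The size of this pattern depended on which control library was kept. Si-Control_v replicate 2 had 35 of 37 members above their mean over the 12 libraries, and the highest summed CPM of the members in that table (3381). It was not alone on that side, since si-Control_v replicate 1 had 31 of 37 above the mean and a sum of 2960. The si-Vldlr libraries had 24 and 29 of 37 above it. The count above the mean was not made over all genes. Without si-Control_v replicate 2 the members' median was -0.07 and 28 of 37 were below 0. Without si-Control_v replicate 1 the median was -0.25 and 34 were below 0. In that fit the log2 change of Hadh, a short-chain hydroxyacyl-CoA dehydrogenase, was -0.66. Each of these fits leaves 1 si-Control_v library. Sums of cell type markers and the share of mitochondrially encoded transcripts are given beside this pattern. The 10 cardiomyocyte markers found in the table summed to 26577 and 27201 CPM in the si-Vldlr libraries and to 30608 and 32148 CPM in si-Control_v libraries, while 9 fibroblast markers summed to 38255 and 35968 CPM in si-Vldlr and to 35604 and 37762 CPM in si-Control_v, which overlap. The 7 smooth muscle and pericyte markers summed to 3660 and 3731 CPM in si-Vldlr libraries, against 3212 and 2733 CPM in si-Control_v. The 7 epicardial and mesothelial markers summed to 151 and 159 CPM in si-Vldlr libraries, against 142 and 144 CPM in si-Control_v, so both of these sums were higher in both si-Vldlr libraries, while the cardiomyocyte sum was lower in both. None of the genes in these 4 lists was at 0 in any of these libraries. Sums of endothelial, macrophage and erythroid markers overlapped, and the 6 brown fat markers, 3 of them at 0, summed to 28.3 and 32.3 CPM in si-Vldlr libraries, against 36.0 and 40.5 CPM in si-Control_v. Mitochondrially encoded transcripts took 3.97% and 4.35% of CPM in si-Vldlr cells, against 4.32% and 6.51% in si-Control_v. Their part in the members' values was not tested.

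**Figure D2:**
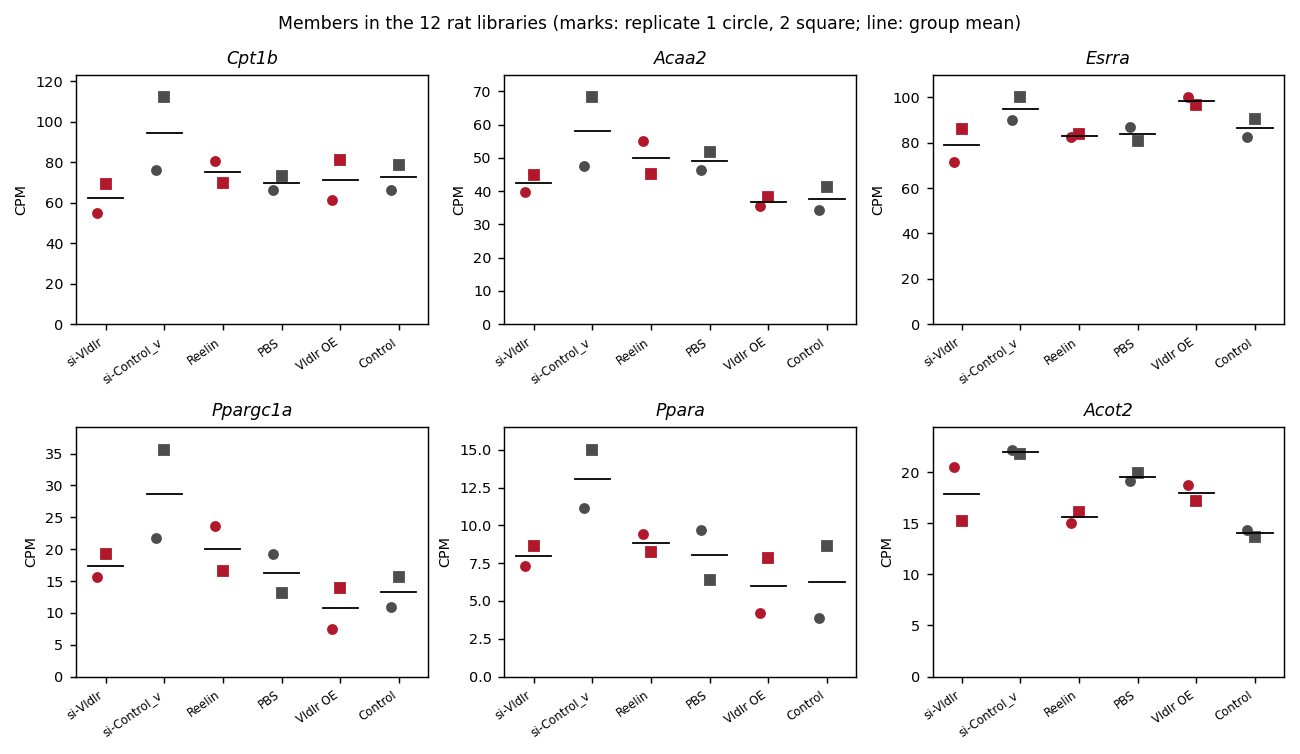
CPM (y axis, from 0) of 6 members in the 6 groups of the 12-library rat table (x axis), with circles for replicate or column 1, squares for 2 and a line at each group's mean. For Cpt1b the si-Vldlr libraries sit at 55.1 and 69.3 CPM and si-Control_v at 76.5 and 112 CPM, while Acot2 is lower in Reelin than in PBS and higher in Vldlr OE than in Control.

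Reelin gave no shared direction. Of 37 members 15 had a fitted change below 0 (40.5%, against 41.4% of all genes), and the median log2 change was 0.01 against 0.02 over all genes. Both Reelin libraries lay below both PBS libraries for 5 members (13.5%, against 13% of all genes) and above them for 5 (19.7% of all genes). At an unadjusted p under 0.05 were 2 members, both thioesterases of acyl-CoA and of opposite sign, against 1.36% of all genes. Acot2 had 15.0 and 16.1 CPM in Reelin against 19.2 and 19.97 CPM in PBS libraries (log2 -0.31, 95% interval -0.60 to -0.02; limma adjusted p = 1). Acot1, its cytosolic relative, had 2.33 and 1.79 CPM against 0.758 and 1.48 CPM in PBS (log2 0.54, 95% interval 0.01 to 1.07), values near the filter of 1 CPM. In mouse the 2 genes are neighbours, 15616 bases apart on chromosome 12, and near-identical copies can share reads, so the split between them is uncertain.

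The other members named for small p-values after Reelin were Crat, carnitine acetyltransferase, with 103 and 89.1 CPM against 87.1 and 88.3 CPM in PBS, and Decr1, a reductase for unsaturated chains, with 61.01 and 60.94 CPM against 56.9 and 57.1 CPM in PBS. Each was higher in both Reelin libraries by little. Among the regulators Ppargc1a had 23.7 and 16.5 CPM in Reelin against 19.3 and 13.1 CPM in PBS, and Ppara had 9.42 and 8.24 CPM against 9.69 and 6.40 CPM in PBS. Both pairs of groups overlap. Cpt1b had 80.5 and 69.8 CPM against 66.5 and 73.2 CPM in PBS, an overlap with a log2 change of 0.10 and an interval of -0.33 to 0.54. Hadha (311 and 284 CPM in Reelin against 284 and 292 CPM in PBS), Acadm (121 and 122 CPM against 122 and 120 CPM in PBS) and Pdk4 (5.313 and 5.796 CPM against 6.19 and 5.44 CPM in PBS) overlapped as well.

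Vldlr overexpression also gave no shared direction, with 18 of 37 members below 0 (48.6%, against 57.2% of all genes) and a median log2 change of 0.01 against -0.03 over all genes. Both Vldlr OE libraries lay above both Control libraries for 7 members (9.54% of all genes) and below them for 2 (15.5% of all genes). The Control columns carry a name that matches no label and were placed by elimination, so values against Control rest on that placement. Just 1 member reached an unadjusted p under 0.05, as 4.52% of all genes did. This was again Acot2, with 18.8 and 17.2 CPM in Vldlr OE against 14.4 and 13.7 CPM in Control libraries (log2 0.34, 95% interval 0.05 to 0.63; limma adjusted p = 0.958). It was higher in both Vldlr OE libraries. Esrra had 100 and 96.6 CPM against 82.7 and 90.3 CPM in Control (log2 0.18, 95% interval -0.04 to 0.41), also without overlap. Ehhadh, the peroxisomal bifunctional enzyme, had 0.740 and 1.11 CPM against 0.482 and 0.512 CPM in Control.

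The other 5 regulators had fitted changes below 0. Esrrg, which encodes ERR gamma, had 57.1 and 63.5 CPM in Vldlr OE against 68.3 and 66.5 CPM in Control, without overlap (log2 -0.16, 95% interval -0.37 to 0.05). The others overlapped. Ppargc1b, encoding PGC-1 beta, had 11.5 and 28.3 CPM in Vldlr OE against 20.8 and 27.3 CPM in Control, and Ppargc1a had 7.54 and 13.9 CPM against 10.98 and 15.63 CPM in Control. In both genes Vldlr OE replicate 1 was the lowest of the 4 libraries. Without replicate 2 of Vldlr OE, which leaves 1 library in that group, the log2 change of Ppargc1b was -0.99. Ppara was at 4.21 and 7.83 CPM against 3.85 and 8.65 CPM in Control. Acadsb, which oxidises short branched chains, had 22.1 and 28.1 CPM against 27.7 and 31.9 CPM in Control. Cpt1b had 61.4 and 81.1 CPM in Vldlr OE against 66.5 and 78.8 CPM in Control, and overlapped. Pdk4 had 3.66 and 4.94 CPM in Vldlr OE against 5.76 and 5.33 CPM in Control and was lower in both libraries, whereas Hadha (262 and 251 CPM against 248 and 244 CPM in Control) and Acadm (110 and 116 CPM against 106 and 104 CPM in Control) were higher in both. For Acot2 the 3 treatments of the 12-library table can be set side by side, each against its own controls: -0.30 with si-Vldlr, -0.31 with Reelin and 0.34 with Vldlr OE. Acot2 was among the 4 members of smallest p in all 3, so it was picked from these same values. The uncertain split between Acot1 and Acot2 bears on each value.

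The siRNA against Thbs1 likewise gave no shared direction. Of 37 members 21 were below 0 (56.8%, against 41.6% of all genes), the median log2 change was -0.02 against 0.03 over all genes, and 0 members reached an unadjusted p under 0.05, where 5.52% of all genes did. Both si-Thbs1 libraries lay below both si-Control_t libraries for 3 members (10.8% of all genes) and above them for 2 (18.5% of all genes). The 4 members of smallest p were Acot1 (2.23 and 1.95 CPM in si-Thbs1 against 3.02 and 2.77 CPM in si-Control_t), Acadm, Acadl and Esrrg. Acadm had 179 and 191 CPM against 179 and 133 CPM in si-Control_t, and Acadl, the long-chain dehydrogenase, had 361 and 329 CPM against 336 and 247 CPM in si-Control_t. In both, si-Control_t replicate 2 was the low library. Esrrg had 85.3 and 97.6 CPM against 77.4 and 83.6 CPM in si-Control_t and did not overlap. Without si-Control_t replicate 1 the members' median turned to 0.11, and without its replicate 2 it was -0.11.

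Some members, such as Acsl1 and Cpt1b, instead followed the replicate number. Same-numbered libraries also deviated together over all 13416 genes (correlation 0.41), so such an order is not particular to the members. The members with this order were not counted. Acsl1 had 323 CPM in si-Thbs1 replicate 1 and 158 CPM in its replicate 2, against 383 and 169 CPM in si-Control_t. Cpt1b had 129 and 68.6 CPM in si-Thbs1 against 125 and 79.2 CPM in si-Control_t, so replicate 1 was the higher in both groups. The cardiomyocyte marker sum had the same order, with 39656 and 22081 CPM in si-Thbs1 against 31822 and 25873 CPM in si-Control_t, and its part was not tested. Hadha (379 and 442 CPM in si-Thbs1 against 398 and 392 CPM in si-Control_t) and Cpt1a (70.9 and 82.9 CPM against 80.0 and 83.0 CPM in si-Control_t) did not show this order. Ppara had 13.8 and 10.7 CPM in si-Thbs1 against 17.0 and 12.9 CPM in si-Control_t, Ppargc1a had 32.7 and 28.5 CPM against 42.1 and 31.6 CPM in si-Control_t, and Pdk4 had 9.92 and 15.4 CPM against 12.6 and 11.2 CPM in si-Control_t. These pairs of groups overlap.

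**Figure D3:**
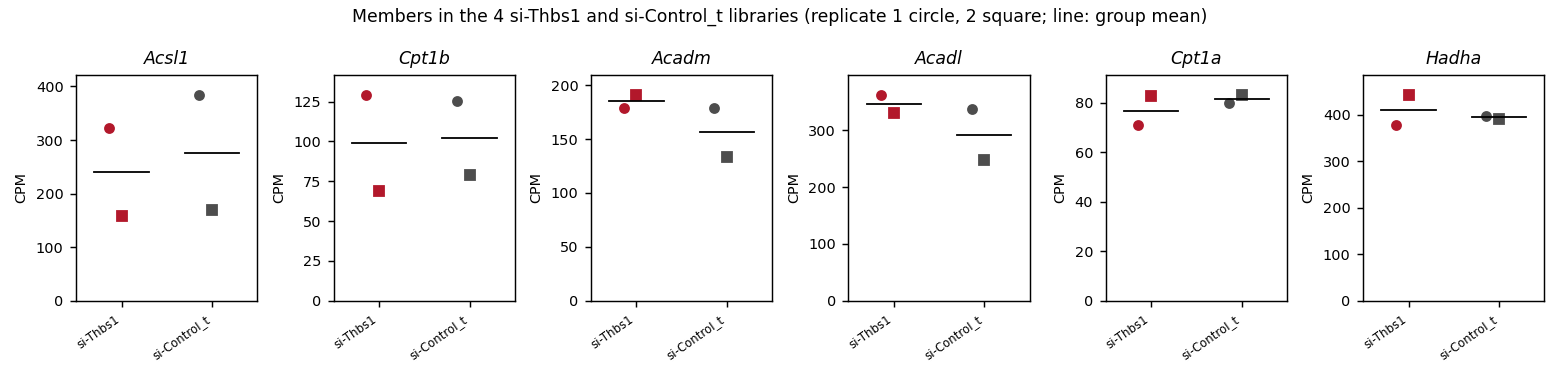
CPM (y axis, from 0) of 6 members in the 2 si-Thbs1 and 2 si-Control_t libraries (x axis), with circles for replicate 1, squares for replicate 2 and a line at each group's mean. Acsl1 and Cpt1b are higher in replicate 1 of both groups (323 and 383 CPM for Acsl1), whereas Cpt1a and Hadha are not.

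In mouse, fatty acid oxidation genes were mostly lower in both Cre groups than in Vldlr f/f, with large spread between libraries of a genotype and no call. In the homozygous Cre libraries 33 of 38 members had a fitted change below 0 (86.8%, against 66.1% of all genes), with a median log2 change of -0.41 against -0.11 over all genes. In the heterozygous Cre libraries the same was true of 34 members (89.5%, against 58.3% of all genes), with a median of -0.39 against -0.06. These comparisons share the Vldlr f/f libraries, so their likeness is no independent result. All 3 homozygous Cre libraries lay below all 3 Vldlr f/f libraries for 7 members (18.4%, against 6.81% of all genes), which were Acaa1a, Acaa2, Acadl, Acot2, Cpt1b, Esrra and Mlycd, and above them for 0 (1.72% of all genes). In the heterozygous Cre libraries this held for 4 members (10.5%, against 3.77% of all genes), which were Acadl, Acot2, Esrra and Etfb, and the reverse for 0 (2.2% of all genes).

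Unadjusted limma p-values under 0.05 were found for 4 members in the homozygous Cre comparison, all lower, where 3.04% of all genes passed (453 genes) and 2.42% passed with a lower value. In the heterozygous one they were found for 2 lower members, where 2.43% passed (362 genes) and 1.49% with a lower value. The quasi-likelihood test of edgeR on recovered steps gave 1 and 2 members, of 344 and 349 genes, and called 0 genes in each. Acot2 was the member of smallest p in both. It had 174, 127 and 88.4 CPM in the homozygous and 145, 171 and 137 CPM in the heterozygous Cre libraries, against 285, 180 and 283 CPM in Vldlr f/f. Every Cre library lay below every Vldlr f/f library, though replicate 2 of Vldlr f/f was close to the highest Cre libraries. The log2 change was -0.96 in the homozygous libraries (95% interval -1.58 to -0.33; limma adjusted p = 0.997) and -0.69 in the heterozygous ones (95% interval -1.32 to -0.07; limma adjusted p = 0.999).

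In the carnitine shuttle all 6 members were below 0 in each comparison, with medians of -0.46 in the homozygous and -0.32 in the heterozygous Cre libraries. Cpt1b had 450, 516 and 457 CPM in the homozygous and 513, 529 and 569 CPM in the heterozygous Cre libraries, against 756, 535 and 650 CPM in Vldlr f/f. Only the homozygous libraries lay wholly below Vldlr f/f, with a log2 change of -0.44 (95% interval -0.87 to -0.00), against -0.26 (-0.69 to 0.18) for the heterozygous ones. Crat had 348, 363 and 209 CPM in the homozygous and 233, 358 and 224 CPM in the heterozygous Cre libraries, against 516, 302 and 534 CPM in Vldlr f/f, where replicate 2 again fell among the Cre values.

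Among the enzymes of the spiral, Acaa2 had 712, 723 and 463 CPM in the homozygous and 699, 949 and 533 CPM in the heterozygous Cre libraries, against 1339, 724 and 1172 CPM in Vldlr f/f (log2 -0.75 in the homozygous and -0.56 in the heterozygous libraries). Hadha had 498, 1302 and 738 CPM in the homozygous and 387, 1435 and 378 CPM in the heterozygous Cre libraries, against 2134, 445 and 1569 CPM in Vldlr f/f. Each genotype held a high and a low library, and the log2 changes of -0.55 and -0.94 had intervals of -2.01 to 0.92 and -2.41 to 0.53. Hadhb followed with 309, 491 and 298 CPM in the homozygous and 223, 620 and 193 CPM in the heterozygous Cre libraries, against 781, 356 and 690 CPM in Vldlr f/f. Acadm had 423, 438 and 348 CPM in the homozygous and 290, 557 and 359 CPM in the heterozygous Cre libraries, against 605, 382 and 584 CPM in Vldlr f/f. Acaa1a, the peroxisomal thiolase, had 56.6, 47.0 and 50.5 CPM in the homozygous Cre libraries against 88.8, 62.5 and 71.8 CPM in Vldlr f/f, without overlap.

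The 2 genes of fuel switch and uncoupling had the lowest median of the 8 roles in each comparison. Pdk4 had 189, 165 and 95.6 CPM in the homozygous and 119, 190 and 90.2 CPM in the heterozygous Cre libraries, against 348, 119 and 434 CPM in Vldlr f/f (log2 -0.86 in the homozygous and -1.04 in the heterozygous libraries). Ucp3, an uncoupling protein homologue of muscle mitochondria that is induced when fatty acids are in supply, had 42.6, 18.7 and 1.98 CPM in the homozygous and 31.9, 39.1 and 3.91 CPM in the heterozygous Cre libraries, against 42.8, 24.8 and 78.9 CPM in Vldlr f/f. Replicate 3 of both Cre groups was far below the rest, and the fitted changes of -1.71 and -1.27 had intervals of -3.93 to 0.51 and -3.48 to 0.95. In rat Ucp3 was listed at 0 in every library but si-Thbs1 replicate 1 (0.0833 CPM). Of the 6 regulators, 4 were below 0 in each comparison, with medians of -0.10 in the homozygous and -0.15 in the heterozygous Cre libraries. Ppargc1a had 96.5, 73.0 and 178 CPM in the homozygous and 131, 61.5 and 240 CPM in the heterozygous Cre libraries, against 92.5, 145 and 119 CPM in Vldlr f/f, with replicate 3 of both Cre groups highest. Ppara had 1.70, 8.09 and 13.8 CPM in the homozygous and 2.66, 7.19 and 4.05 CPM in the heterozygous Cre libraries, against 7.14, 3.00 and 7.89 CPM in Vldlr f/f. Esrra alone of the 6 regulators separated both Cre groups from Vldlr f/f, at 140, 77.7 and 142 CPM in the homozygous and 99.7, 134 and 149 CPM in the heterozygous Cre libraries, against 175, 157 and 162 CPM in Vldlr f/f.

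**Figure D4:**
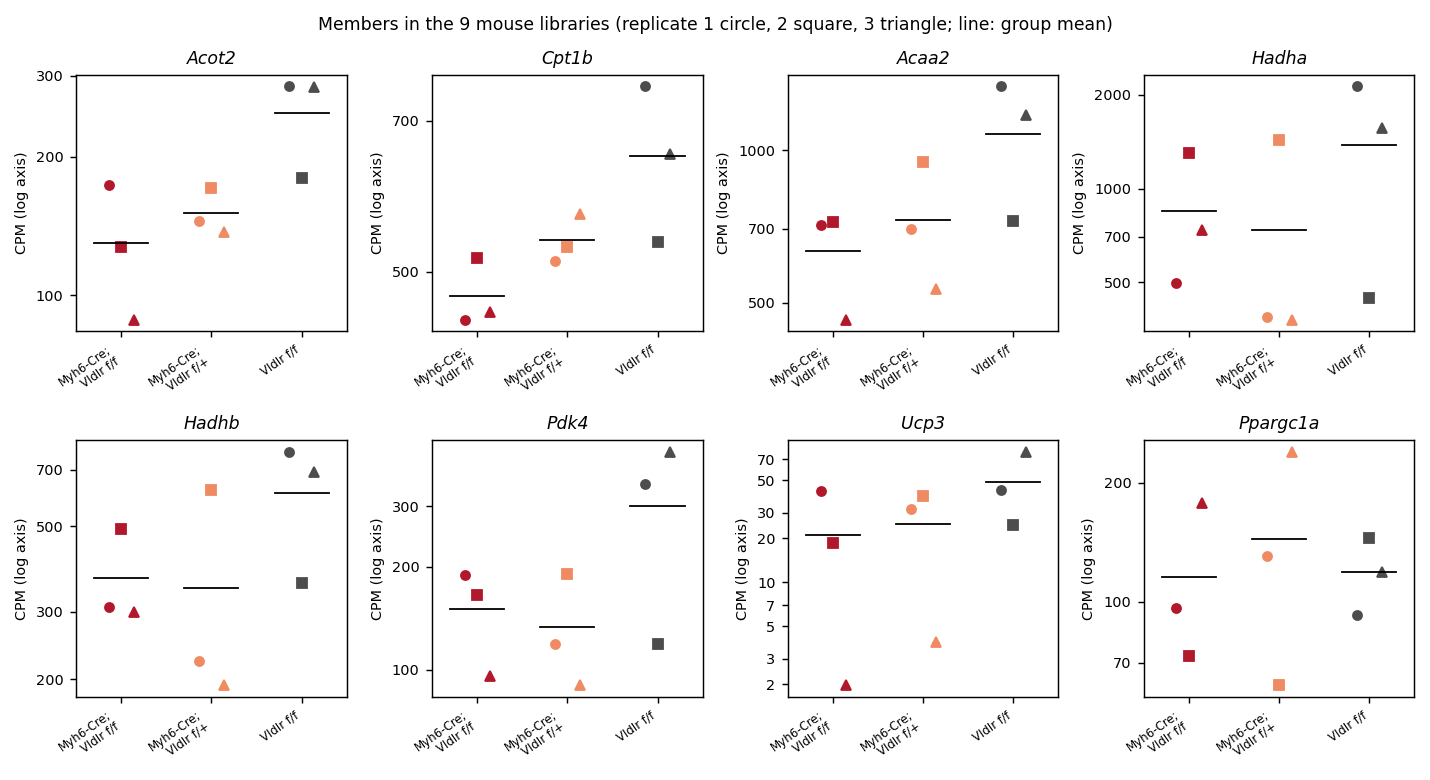
CPM (y axis, log scale) of 8 members in the 9 mouse libraries by genotype (x axis), with circles, squares and triangles for replicates 1, 2 and 3 and a line at each group's mean. Vldlr f/f replicate 2 (square) lies near or below Cre libraries for Hadha (445 CPM), Hadhb and Pdk4, and Ucp3 is lowest in replicate 3 of both Cre groups.

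The spread within a genotype was shared by many members at once. In Vldlr f/f, 33 and 35 of 38 members were above their mean over the 9 libraries in replicates 1 and 3, against 14 in replicate 2. In the heterozygous Cre group, 31 were above it in replicate 2 and 7 and 9 in replicates 1 and 3, while the homozygous libraries were nearer the mean, with 14, 21 and 13. These counts were not made over all genes. Over genes above 0 in every library, the median ratio to the gene's geometric mean was 1.07, 1.02 and 1.09 in Vldlr f/f. It was 1.05, 0.99 and 1.02 in the heterozygous and 1.02, 0.87 and 1.03 in the homozygous Cre libraries. The part of this ratio in the counts was not tested. The summed CPM of the members was 8356, 10161 and 7813 in the homozygous and 6978, 11892 and 7163 in the heterozygous Cre libraries, against 15251, 8203 and 13725 in Vldlr f/f. The lowest Vldlr f/f library thus lay below 3 of the 6 Cre libraries in sum and was also the Vldlr f/f library with the least Vldlr (109 CPM). Without it the members' medians were -0.57 in the homozygous and -0.61 in the heterozygous comparison. Leaving out a high Vldlr f/f library instead made them smaller. They were -0.30 and -0.27 without its replicate 1, and -0.34 and -0.32 without its replicate 3. Acadsb and Acot13 ran against this order, with 53.2 and 237 CPM in Vldlr f/f replicate 2 against 22.1 and 164 CPM in its replicate 1.

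Measures outside the pathway varied too. Mitochondrially encoded transcripts took 20.2%, 24.7% and 16.0% of CPM in the homozygous and 21.4%, 17.9% and 16.7% in the heterozygous Cre libraries, against 14.2%, 19.9% and 15.8% in Vldlr f/f. The median change over all genes was itself -0.11 in the homozygous comparison. After scaling by median ratios, which set it to -0.00, the members' median was -0.29 with 28 of 38 below 0 (73.7%, against 50.2% of all genes). In the heterozygous comparison the same scaling gave 34 members below 0 (89.5%, against 51.4% of all genes), with a median of -0.34. Cardiomyocyte marker sums overlapped, at 55881, 54912 and 48344 CPM in the homozygous and 54872, 57637 and 58012 CPM in the heterozygous Cre libraries, against 57421, 61782 and 51514 CPM in Vldlr f/f. Epicardial and mesothelial markers (7 genes, none at 0) summed to 146, 179 and 354 CPM in the homozygous and 491, 256 and 134 CPM in the heterozygous Cre libraries, against 175, 119 and 92.3 CPM in Vldlr f/f. The mean was higher in both Cre groups, and each overlapped Vldlr f/f. Fibroblast markers (9 genes, none at 0) summed to 3888, 3715 and 3478 CPM in the homozygous and 5637, 4367 and 3481 CPM in the heterozygous Cre libraries, against 3038, 2987 and 4041 CPM in Vldlr f/f, and overlapped as well. Of the brown fat markers, Ucp1 was at 0 in every mouse library but 1 (0.0605 CPM), and Adipoq in every one but another (0.0561 CPM). Fabp4, which capillaries of the heart also express, made up most of that list's sum. The sum was 517 to 687 CPM (mean 604) in the homozygous and 554 to 907 CPM (mean 720) in the heterozygous Cre libraries. In Vldlr f/f it was 670 to 951 CPM (mean 808), and each Cre group overlapped this range. Cidea, Pparg and Plin1, also in that list, are not given singly. Sums of endothelial, smooth muscle and pericyte, macrophage and erythroid markers in each Cre group overlapped those in Vldlr f/f. The mean erythroid sum was 4272 CPM in the homozygous and 5719 CPM in the heterozygous Cre libraries, against 4030 CPM in Vldlr f/f. The parts of these measures in the members' values were not tested.

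**Figure D5:**
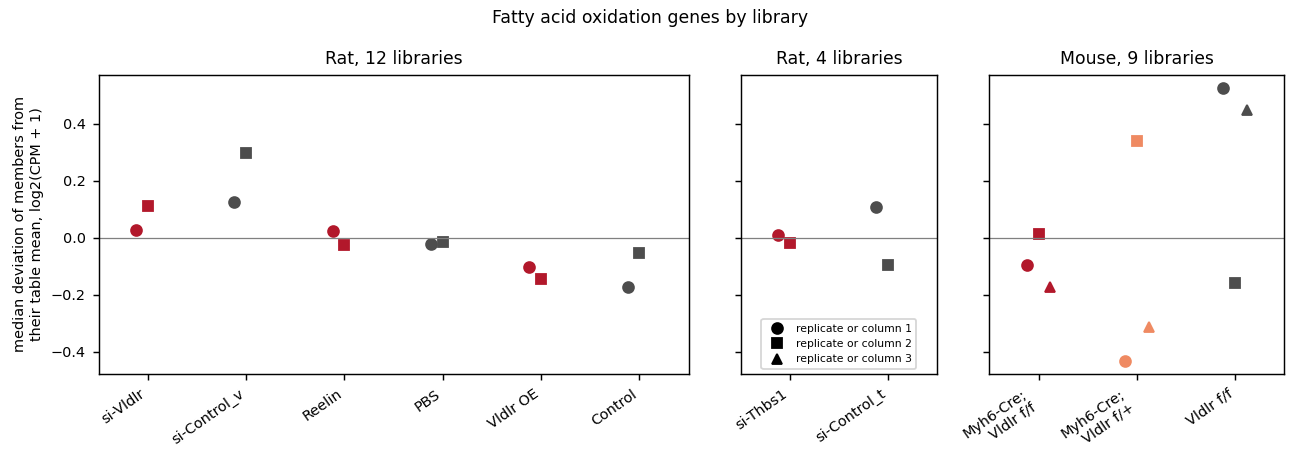
For each library (x axis, by group), the median over the members of log2(CPM + 1) minus the gene's mean in that table (y axis), with circles, squares and triangles for replicates or columns 1, 2 and 3. Vldlr f/f replicates 1 and 3 lie at 0.53 and 0.45 and replicate 2 at -0.16, and in rat the highest library is si-Control_v replicate 2 at 0.30.

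Between the homozygous and the heterozygous Cre libraries the members showed no common direction, with 19 of 38 below 0 (50%, against 60.2% of all genes) and a median of 0.01 against -0.06 over all genes. No member had all 3 libraries of a group on 1 side, where 1.82% of all genes were wholly lower and 0.677% wholly higher in the homozygous libraries. No member reached an unadjusted p under 0.05, where 0.925% of all genes did (138 genes by limma and 140 by edgeR, with 0 called by each). The 4 members of smallest p were Ehhadh, with 12.9, 11.3 and 14.2 CPM in the homozygous against 5.81, 11.5 and 13.0 CPM in the heterozygous libraries, Etfb, Acot2 and Cpt1b. Etfb, the beta subunit of the electron transfer flavoprotein, had 355, 206 and 173 CPM in the homozygous against 291, 315 and 240 CPM in the heterozygous libraries. All 4 overlapped. For Acot2 the log2 change was -0.26 (95% interval -0.89 to 0.36), and for Cpt1b it was -0.18 (-0.61 to 0.25), intervals that hold 0 as well as changes in either direction. Taken by same-numbered pair, 3 members (Cpt1b, Eci1 and Ppargc1b) were lower in the homozygous library of all 3 pairs (7.89%, against 18.3% of all genes). Acat1 was the 1 member higher in all 3 (2.63%, against 6.11% of all genes). With the replicate number as a block and the Cre groups fitted alone, an alternative chosen after seeing the data, the interval for Cpt1b was -0.59 to 0.23. That fit called 0 genes (limma), and 0 members had an unadjusted p under 0.05, where 3.67% of all genes did (531 genes).

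Other genes of fatty acid handling were taken from a list of oxidation, transport and synthesis genes outside the members, of which 28 were tested in the 12-library rat table and 31 in each of the other tables. None was called in any comparison. With si-Vldlr, 18 of 28 were below 0 (64.3%, against 53.9% of all genes) with a median of -0.09 against -0.02, and Acsl4, an acyl-CoA synthetase that prefers arachidonic acid, had 119 and 112 CPM against 105 and 75.8 CPM in si-Control_v (log2 0.37, limma adjusted p = 0.370). Acsl5 had 82.9 and 88.4 CPM against 78.2 and 71.0 CPM in si-Control_v. With Reelin, 7 of 28 were below 0 (41.4% of all genes), and the smallest p-values belonged to Nrip1, a corepressor of these nuclear receptors, with 20.7 and 16.9 CPM against 16.4 and 15.7 CPM in PBS, and Acad10, with 10.2 and 9.02 CPM against 8.06 and 7.50 CPM in PBS. With Vldlr OE, Rxrb, a partner receptor of the PPARs, had 30.2 and 32.8 CPM against 40.3 and 39.4 CPM in Control, and Angptl4, a PPAR target that inhibits lipoprotein lipase, had 4.15 and 4.68 CPM against 3.34 and 1.54 CPM in Control. With si-Thbs1, Rxrg had 2.15 and 2.76 CPM against 4.80 and 4.52 CPM in si-Control_t (log2 -0.72, limma adjusted p = 0.585), and Acsl3 had 100 and 81.2 CPM against 77.6 and 63.0 CPM in si-Control_t.

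In mouse 26 of 31 of these genes were below 0 in the homozygous comparison (83.9%, against 66.1% of all genes), with a median of -0.27 against -0.11 over all genes. In the heterozygous comparison it was 25 of 31 (80.6%, against 58.3% of all genes), with a median of -0.30 against -0.06. Acacb, the carboxylase whose product malonyl-CoA inhibits Cpt1, had 165, 167 and 137 CPM in the homozygous and 187, 204 and 154 CPM in the heterozygous Cre libraries, against 303, 219 and 260 CPM in Vldlr f/f, with every Cre library below every Vldlr f/f library. Acox3, a peroxisomal oxidase, had 15.0, 35.7 and 22.2 CPM in the heterozygous Cre libraries against 50.7, 37.3 and 42.8 CPM in Vldlr f/f. Between the Cre genotypes, Rxrg (3.37, 2.44 and 2.13 CPM in the homozygous against 3.68, 3.19 and 3.09 CPM in the heterozygous libraries) and Cpt1c (6.66, 5.10 and 5.99 CPM against 8.87, 5.78 and 7.72 CPM) had the smallest p-values. Both overlapped as groups and were lower in the homozygous library of each same-numbered pair, as 18.3% of all genes were. Both were picked for small p in this comparison, so the shared direction of their pairs is no independent result. With the block and the Cre groups fitted alone the log2 change was -0.25 for Rxrg (95% interval -0.79 to 0.28) and -0.28 for Cpt1c (95% interval -0.79 to 0.23).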

How the data were processed

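RNA of 16 rat and 9 mouse libraries was measured by sequencing of Illumina libraries from TRIzol extracts, per the labels' protocols. Per the submitters' processing notes, the tools were StringTie 1.3.4, HISAT2 2.1.0 and edgeR 3.20.9, in roles not named, and the builds mm10 and rn6. The authors deposited CPM, with the same sum in every library. Names placed 23 libraries in their groups, and elimination placed the other 2 in Control, so the numbers of those columns are not replicate numbers. Rows with repeated names (4 in each file) were left out.

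CPM are not counts, so the main test was limma 3.58.1 (its trend option on, R 4.3.3), applied to log2(CPM + 1), with a pseudocount of 1, for genes of at least 1 CPM in at least 2 (rat) or 3 (mouse) libraries: 13860, 13416 and 14922 genes. All groups of a table shared a single fit without a replicate block, p-values were adjusted over all genes tested, and tests stayed within a table. Values were whole multiples of a step within 0.05 steps for 100% of mouse and 99.12% to 99.25% of rat values, so edgeR 4.0.16 was run on mouse steps as an alternative. A step need not be a read, so no counting interval is given and the depth in reads is unknown. Scripts were tested on simulated data. Same-numbered libraries deviated together in the homozygous against the heterozygous Cre comparison (correlations 0.46, 0.44 and 0.33 over genes). Differently numbered Cre libraries had -0.39 to 0.09. Against Vldlr f/f replicate 2, however, replicate 1 reached 0.44 in the homozygous and 0.41 in the heterozygous Cre group without sharing its number. The numbers therefore pair Cre libraries only from a weak hint in the data. For the 2 Cre groups the fit with the block called 0 genes, as without it. A fit of those 2 groups alone with the block, added after seeing the data, also called 0.

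Members, lists and the rule for named genes were chosen with earlier results of these data known. Values in every library are given for the 4 members of smallest p and the 2 of largest change in each comparison, for 6 fixed members, and for the 2 other pathway genes of smallest p. Values of Acsl1, Cpt1a and Acot13 are given outside this rule. Some other members, among them Esrra, Esrrg and Acadsb, are also given in comparisons where the rule does not name them. The values of 1 gene that this rule names are not reported here. Mouse positions are from GENCODE M21 (GRCm38) and rat promoters from RefSeq (GRCr8), whose build differs from that of the rat files.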

Additional observations from a re-analysis of the deposited data

How the results depend on the processing

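The absence of called members held under every alternative run except leaving out si-Control_v replicate 1 (1 member, Hadh) and Vldlr OE replicate 2 (1 member, Ppargc1b, log2 -0.988). The members' median stayed below 0 in all settings for si-Vldlr (-0.25 to -0.065), for the homozygous Cre comparison with Vldlr f/f (-0.57 to -0.29) and for the heterozygous one (-0.63 to -0.23). It changed sign between settings for Vldlr OE (-0.06 to 0.06), Reelin (-0.01 to 0.05), si-Thbs1 (-0.11 to 0.11) and the homozygous against the heterozygous Cre libraries (-0.06 to 0.28). Genes called without the filter on low values were 0 for si-Thbs1 and 4 for Vldlr OE, and with the compared groups fitted alone 13 for Reelin, 8 for si-Vldlr, 8 for Vldlr OE and 1 for the homozygous Cre comparison. Leaving out 1 library gave 4 to 9 genes for Reelin, 4 to 167 for si-Vldlr (167 without si-Control_v replicate 1, 7 without si-Vldlr replicate 1), and 2 to 257 for Vldlr OE (257 without its replicate 2, 80 without Control column 1). It gave 15 to 268 for si-Thbs1 (268 without si-Control_t replicate 1) and 0 to 1 for each comparison with Vldlr f/f, the lone library being assumed to vary like the other groups. The cause was not tested. With the replicate number as a block si-Thbs1 called 43 genes, si-Vldlr 4, Reelin 3, the mouse comparisons 0, and no member was called. Same-numbered libraries correlated at 0.16 for si-Vldlr, -0.06 for Reelin and 0.41 for si-Thbs1, and with 2 pairs they share only a number. Against Vldlr f/f the correlations were -0.37, -0.29 and 0.06 for the homozygous and -0.28, -0.54 and -0.05 for the heterozygous Cre libraries. No paired analysis was possible for Vldlr OE because the Control columns carry no replicate number. After median ratio scaling Reelin had 16 members above and 21 below 0 (56.8% below, against 48.9% of all genes). Vldlr OE had 24 above and 13 below (35.1% below, against 48.9% of all genes). Of the values of single named members under alternatives, 730 kept their side and direction and 38 uncalled ones changed sign. With 2 or 3 libraries a group, members near or below 1 CPM in some library (Acot1, Ehhadh and Ucp3 in the 12-library rat table, Ucp3 in the other) have little signal.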
